A study of Mus musculus with 3 samples.

Results

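The inhibitors of apoptosis Birc2 and Birc3, the caspase-8 regulator Cflar and the Bcl2-family genes Mcl1, Bcl2l1, Bcl2l11, Bcl2a1a, Bcl2a1b, Bcl2a1d and Bcl2 were followed in RNA bound to macrophage chromatin. They are 10 of 55536 annotated genes, taken by symbol and gene identifier from the transcript names of the deposited tables, and each symbol matched 1 gene. The cells were primary macrophages grown from bone marrow of the mouse strain C57BL/6J and given Lipid A at 100 ng/ml for 10 min. Lipid A is the membrane anchor of bacterial lipopolysaccharide and the ligand of the receptor TLR4. Chromatin RNA, the RNA that stays with chromatin on fractionation and is rich in unfinished transcripts, was sequenced as total RNA after removal of ribosomal RNA. There was 1 group of 3 biological replicates, made from 1 µg, 250 ng and 500 ng of RNA for replicates 1, 2 and 3, so replicate and amount cannot be told apart. The labels give the same donor entry for the 3 libraries, so the spread between them may be technical. No unstimulated library was used here, so a level does not show whether a gene was induced.

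Cells die by apoptosis when caspases are activated, either at death receptors or through mitochondria. Birc2 and Birc3 encode cIAP1 and cIAP2, ubiquitin ligases of the tumour necrosis factor receptor complex that hold back caspase-8 and feed NF-kB signalling. Cflar encodes c-FLIP, a catalytically inactive relative of caspase-8 that competes with it at the same complex. At mitochondria Mcl1, Bcl-xL (from Bcl2l1), Bcl2 and A1 (from the Bcl2a1 genes) bind and restrain pore-forming proteins, and the BH3-only protein Bim (from Bcl2l11) antagonises them. Birc3, Cflar and the Bcl2a1 genes are known NF-kB targets in macrophages, in which TLR4 drives survival and death signals at once.

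The 3 Bcl2a1 genes followed here are shown first, because their sequences set how far reads can tell them apart. All lay on chromosome 9 of mm10: Bcl2a1d at chr9:88723285-88731914 on the minus strand, Bcl2a1a at chr9:88956900-88962419 and Bcl2a1b at chr9:89199209-89207827, both on the plus strand. Their coding sequences had 516 bases each and differed at 12 positions. Bcl2a1a and Bcl2a1b differed at 11 positions, Bcl2a1a and Bcl2a1d at 7 and Bcl2a1b and Bcl2a1d at 6. The first 120 coding bases, from the GENCODE M21 transcripts, hold 7 of the 12 variable positions, which are in capitals:
Bcl2a1a: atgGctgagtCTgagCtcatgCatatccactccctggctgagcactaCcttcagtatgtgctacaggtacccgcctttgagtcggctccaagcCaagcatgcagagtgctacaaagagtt
Bcl2a1b: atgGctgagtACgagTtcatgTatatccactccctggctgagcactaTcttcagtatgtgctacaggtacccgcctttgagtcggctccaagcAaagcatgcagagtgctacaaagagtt
Bcl2a1d: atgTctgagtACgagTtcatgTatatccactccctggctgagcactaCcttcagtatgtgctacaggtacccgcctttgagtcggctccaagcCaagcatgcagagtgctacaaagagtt
Of the 31-base windows of each transcript, 20.4% of those of Bcl2a1a, 11.2% of those of Bcl2a1b and 10.9% of those of Bcl2a1d occurred in no other gene of the annotation. At 100 bases the shares were 56.5%, 43.2% and 45.3%. A further annotated gene of this family, Bcl2a1c, was not among the genes followed. It shared 31-base windows with Bcl2a1a, Bcl2a1b and Bcl2a1d. At 75 bases it shared windows with Bcl2a1a and Bcl2a1d, and at 100 bases with none of these copies. Its level was not examined. The annotated gene Gm29094 (chr9:89199379-89215471, plus strand) overlaps Bcl2a1b on the same strand, and 16.8% of its 100-base windows were its own.

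Among the 3 copies followed here the reads went mainly to Bcl2a1b. Its TPM (the length-normalized abundance that the authors deposited) was 17.8, 15.2 and 7.36 in replicates 1, 2 and 3. Bcl2a1d stood at 4.39, 1.39 and 2.25 TPM in the same libraries. Bcl2a1a stood at 0.190, 0.130 and 0 TPM, from estimated counts of 1.64, 1.40 and 0. Bcl2a1b was thus above Bcl2a1d, and Bcl2a1d above Bcl2a1a, in each of the 3 libraries, and the values of the 3 copies did not overlap. Bcl2a1b held 81.3% ± 7.91 (SD, n = 3) of the counts of the 3 copies in the gene table and 73.2% ± 9.01 in the second transcript table. The deposited SD of read assignment was 10.3, 9.23 and 6.83 counts for Bcl2a1b counts of 155, 157 and 74.7. For Bcl2a1d it was 2.61, 1.49 and 1.75 counts on 41.0, 15.6 and 24.6. The difference between those 2 copies was larger than the assignment error in each library, whereas the gene-table counts of Bcl2a1a were near that error (1.34, 0.90 and 0.84) and below the 3 counts that a count of 0 allows. The second transcript table gave Bcl2a1a 2.72, 6.31 and 5.97 counts, above 3 in 2 of 3 libraries, and 0.309 ± 0.104 TPM. Gm29094 had 64.7, 40.2 and 31.4 counts, some of which share their sequence with Bcl2a1b. Bcl2a1d is overlapped on the opposite strand by Gm10634, which had 70.7, 94.1 and 40 counts. No source used here says whether strand was used in counting, so the values of these overlapping genes are uncertain.

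**Figure D1:**
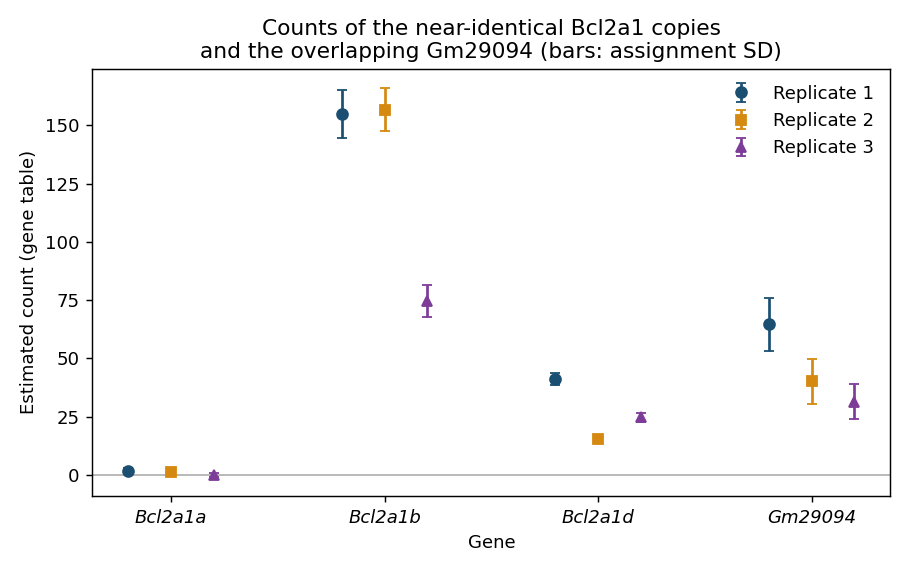
Estimated counts of Bcl2a1a, Bcl2a1b, Bcl2a1d and Gm29094 in the gene table, 1 point per library, with bars for the deposited SD of read assignment. Bcl2a1b stands at 155, 157 and 74.7 counts, above the other copies in each library, and Bcl2a1a lies between 0 and 1.64.

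The bases just upstream of the 3 copies are given because the copies differed in level while these bases were nearly the same. They come from RefSeq (GRCm38.p6) and end at the GENCODE transcript start. Bases that differ from Bcl2a1a in the aligned stretch are in capitals. The windows are chr9:88956670-88956899, chr9:89199023-89199208 and, on the minus strand, chr9:88731915-88732100:
Bcl2a1a: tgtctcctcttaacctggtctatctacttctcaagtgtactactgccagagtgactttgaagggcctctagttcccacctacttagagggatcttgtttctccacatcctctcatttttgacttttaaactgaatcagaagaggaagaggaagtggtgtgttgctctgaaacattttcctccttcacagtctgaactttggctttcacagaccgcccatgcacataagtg
Bcl2a1b: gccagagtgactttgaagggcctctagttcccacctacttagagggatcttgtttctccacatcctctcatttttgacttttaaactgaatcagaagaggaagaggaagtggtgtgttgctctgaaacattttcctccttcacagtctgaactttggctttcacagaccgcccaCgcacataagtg
Bcl2a1d: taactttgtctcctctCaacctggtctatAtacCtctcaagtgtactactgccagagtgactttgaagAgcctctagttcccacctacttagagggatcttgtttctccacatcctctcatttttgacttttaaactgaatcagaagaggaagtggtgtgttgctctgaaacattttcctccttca
Bcl2a1b matched Bcl2a1a at 185 of 186 aligned bases. Bcl2a1d matched it at 176 of 180 and lacked 6 bases. All 10 genes had an entry in the promoter table, with 14 windows of 300 bases in all. The letters AGGAAGT, a core bound by ETS factors such as PU.1, were found on either strand in 3 of those 14 windows, those of Bcl2a1a, Bcl2a1b and Bcl2a1d. They occurred in 9.35% of all 32851 windows in the table. The same letters stand in the sequences printed above, and those 3 windows are of near-identical copies. The 3 matches thus amount to 1 sequence and cannot be read as an excess over that percent. The kB consensus, also searched on both strands, was found in 1 of the 14, a Bcl2l1 window, and in 8.46% of all windows. A match describes letters and not a bound site, and no match says only that the letters are not in that window.

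Of the 10 genes 9 reached a TPM of 1 in every library, all but Bcl2a1a. The same held for 24.4% of all annotated genes and 45.9% of protein coding genes. The median over the 10 genes was 29.0 TPM ± 4.32 (SD, n = 3), beside 0.728 ± 0.155 over protein coding genes and 11.7 ± 2.17 over detected ones. The TPM of 8 of the 10 genes was highest in replicate 1 and that of 9 was lowest in replicate 3. Protein coding genes as a whole held 31.6%, 25.3% and 22.2% of TPM in replicates 1, 2 and 3. After TPM was rescaled over protein coding genes, 5 of the 10 genes were highest in replicate 1, 5 in replicate 2 and 0 in replicate 3. Lowest after rescaling were 4 genes in replicate 1, 2 in replicate 2 and 4 in replicate 3. By TPM of the second transcript table, not rescaled, replicate 1 was highest for 6 genes, replicate 2 for 3 and replicate 3 for 1. By those values replicate 3 was lowest for 6 genes, and replicates 1 and 2 for 2 each. Shares of all genes with these orders were not computed, so the counts describe the 10 genes only.

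**Figure D2:**
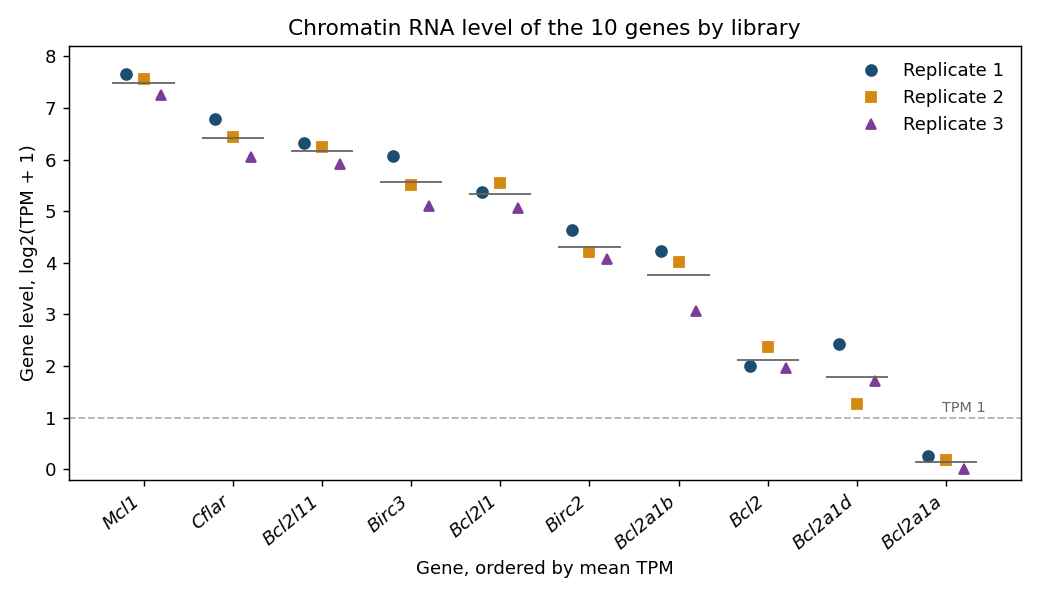
Level of each gene in the gene table as log2(TPM + 1), with 1 point per library and a line at the mean of the 3. The order runs from Mcl1, at 152 to 200 TPM, to Bcl2a1a, the gene below the dashed line at a TPM of 1.

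Of the 2 inhibitor of apoptosis genes, which lie 11634 bases apart on the minus strand of chromosome 9 (Birc2 at chr9:7818227-7837064 and Birc3 at chr9:7848699-7873186), Birc3 was the higher at gene level. Birc3 stood at 65.8, 44.3 and 33.5 TPM and Birc2 at 23.9, 17.4 and 15.7. The groups of values did not overlap, and Birc3 was 2.48 ± 0.319 times Birc2 (SD, n = 3). The mean difference was 1.26 ± 0.19 in log2(TPM + 1), with Birc3 higher in 3 of 3 libraries (exact sign-flip permutation test, two-sided p = 0.25, adjusted p = 0.25). With 3 libraries 0.25 is the smallest p this test can give, so none of the 5 pairs compared here could reach 0.05. The size of the difference depended on the transcripts and the table used. Without transcripts that hold 100 or more intron bases (described with the transcripts), Birc3 stood at 21.2, 12.5 and 12.5 TPM and Birc2 at 18.0, 13.2 and 12.4, and the difference was 0.05 ± 0.16, with Birc3 higher in 2 of 3 libraries. In the second transcript table it was 0.76 ± 0.28 without them, with Birc3 higher in 3 of 3. As CPM (counts scaled to library size, with no correction for length), it was 0.27 on the log2(CPM + 1) scale.

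Cflar (chr1:58711508-58758884, plus strand) had the second highest mean level of the 10 genes in the gene table, at 109, 86.1 and 64.8 TPM. In the second transcript table its mean of 84.0 ± 10.4 was below those of Bcl2l11 (89.4 ± 14.2) and Birc3 (87.0 ± 24.4). Casp8, the caspase it restrains, stood at 34.2, 26.8 and 21.2 TPM. Cflar was 3.15 ± 0.0802 times Casp8, and the difference was 1.62 ± 0.04 in log2(TPM + 1), the same direction in 3 of 3 libraries (exact sign-flip permutation p = 0.25, adjusted p = 0.25). Without transcripts holding intron bases, it was 0.33 ± 0.17 in the first transcript table and -0.17 ± 0.17 in the second. The order of these 2 genes thus changed with the transcripts and the table used.

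Among the anti-apoptotic Bcl2 genes Mcl1 (chr3:95658788-95663176, plus strand) was highest, at 200, 187 and 152 TPM, above 99.3% of protein coding genes by mean TPM. Mcl1 encodes a short-lived protein, so that its supply depends on continued transcription. Bcl2l1 (chr2:152780668-152831728, minus strand) stood at 40.4, 45.9 and 32.5 TPM. Bcl2 (chr1:106538178-106714274, minus strand), which spans 176097 bases, stood at 2.98, 4.15 and 2.91 TPM. Mcl1 values lay above all values of Bcl2l1, and those above all values of Bcl2. Mcl1 was 4.57 ± 0.445 times Bcl2l1 and 54.8 ± 11.2 times Bcl2 in TPM. In log2(TPM + 1) the differences were 2.16 ± 0.14 and 5.38 ± 0.25, each in 3 of 3 libraries (exact sign-flip permutation p = 0.25 and adjusted p = 0.25 for each). Without transcripts holding intron bases they were 3.70 ± 0.05 and 6.47 ± 0.19 in the first transcript table and 4.02 ± 0.18 and 7.04 ± 0.27 in the second. Mcl1 has no such transcript, so setting them aside could only enlarge these differences within a table. Bcl2 is overlapped by D630008O14Rik on the opposite strand, with 13, 14 and 13.7 counts, and by Gm37053 on its own strand, with 26, 38 and 21, beside 173, 280 and 202 counts of Bcl2.

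Bcl2l11 (chr2:128126038-128162547, plus strand), whose product Bim binds and neutralises the anti-apoptotic proteins, stood at 79.0, 75.1 and 59.6 TPM. That was below Mcl1 and above Bcl2l1, Bcl2 and the Bcl2a1 genes followed here in each library. Mcl1 was 2.53 ± 0.0281 times Bcl2l11 in the gene table, and the difference was 1.32 ± 0.01 in log2(TPM + 1), the same direction in 3 of 3 libraries (exact sign-flip permutation p = 0.25, adjusted p = 0.25). Without transcripts holding intron bases Bcl2l11 stood at 14.9 ± 3.28 TPM and the difference was 3.51 ± 0.11, since Mcl1 has no such transcript. In the second transcript table Bcl2l11 stood at 29.9 ± 6.53 TPM without them and the difference was 2.98 ± 0.19. In the same setting Bcl2l1 stood at 12.9 ± 2.06 and Bcl2a1b at 13.45 ± 5.44 TPM in the first transcript table. The lead of Bcl2l11 over both was thus small there. In the second transcript table Bcl2l1 stood at 13.9 ± 2.87 and Bcl2a1b at 13.6 ± 4.70 TPM, so that lead was larger.

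By mean TPM of the gene table the 10 genes followed the order Mcl1, Cflar, Bcl2l11, Birc3, Bcl2l1, Birc2, Bcl2a1b, Bcl2, Bcl2a1d and Bcl2a1a. For 2 neighbours in this order the mean difference was smaller than its SD over libraries. Birc3 and Bcl2l1 differed by 0.23 ± 0.40 in log2(TPM + 1), with Birc3 higher in 2 of 3 libraries. Bcl2 and Bcl2a1d differed by 0.31 ± 0.77, with Bcl2 higher in 2 of 3. The remaining neighbours kept their order in 3 of 3 libraries of that table, the closest being Cflar and Bcl2l11 at 0.26 ± 0.18 and Birc2 and Bcl2a1b at 0.53 ± 0.42. The order depended on the table. In the second transcript table Bcl2l11 stood at 103, 90.5 and 74.6 TPM and Cflar at 95.7, 80.9 and 75.5, so Bcl2l11 was the higher in replicates 1 and 2, and Birc3, at 108, 92.3 and 60.5, was above both there.

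The wider apoptosis machinery was described with 7 lists of 41 genes, with a median of 9.15 TPM ± 2.01 over all 41. Of these 33 (80.5%) reached a TPM of 1 in all 3 libraries, as did 24.4% of all annotated genes and 45.9% of protein coding genes. Among other inhibitor of apoptosis genes 5 of 8 did: Birc6, a giant ubiquitin-conjugating member, was highest at 122 ± 14.7 TPM, and Birc7 was listed at 0 in every library. Of 2 other anti-apoptotic Bcl2 genes Bcl2l2, which encodes Bcl-w, stood at 26.8 ± 5.49 and Bcl2l10 at 0.0800 ± 0.0265. The pore-forming effectors passed in 2 of 3 cases, with Bax highest at 48.3 ± 17.7 and Bok lowest at 0.310 ± 0.128. The other BH3-only genes passed in 5 of 7, from Bid, which links caspase-8 to mitochondria, at 16.3 ± 1.56 down to Hrk at 0.020 ± 0.017. Each of these BH3-only means was below the 71.2 ± 10.2 of Bcl2l11 over all its transcripts. Without transcripts holding intron bases Bcl2l11 stood at 14.9 ± 3.28, below Bid, from which no transcripts were set aside. In the second transcript table Bcl2l11 stood at 29.9 ± 6.53 without them, beside 28.9 ± 1.52 for Bid. All 3 antagonists of inhibitor of apoptosis proteins passed, with the mitochondrial protease Htra2 at 51.7 ± 15 and Diablo, which encodes Smac, at 16.6 ± 3.11. So did all 8 caspase and apoptosome genes, from the apoptosome scaffold Apaf1 at 56.3 ± 10.1 to the executioner caspase Casp6 at 4.47 ± 1.55. Of the death receptor complex 9 of 10 passed, with the kinase Ripk1 highest at 43.2 ± 5.80 and the TRAIL receptor Tnfrsf10b lowest at 0.753 ± 0.471.

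The labelled cell type was checked with marker genes. All 8 macrophage markers reached a TPM of 1 in all 3 libraries, with summed levels of 1206, 727 and 594 TPM. None of 10 neutrophil, 6 B cell and 5 fibroblast markers did, and their summed levels were 0.30 to 2.03, 0.92 to 3.11 and 0 to 0.80 TPM. Of 8 T cell markers 1 did, Il7r at 41.8 ± 7.93 TPM, while Cd3e, Cd3g and Lck were listed at 0 in every library of the gene table. By the second transcript table, 1 neutrophil marker passed, Cxcr2 at 2.29 ± 0.130 TPM. So did 3 T cell markers, Il7r, Cd8a at 3.21 ± 0.0331 and Cd3d at 3.67, 13.2 and 17.2 TPM in replicates 1, 2 and 3. The gene table gave Cxcr2 0.010 ± 0.017, Cd3d 0.030 ± 0.026 and Cd8a 0.080 ± 0.010 TPM, so the tables disagree on each of these markers. In such bulk libraries fewer cells of a type and less RNA per cell cannot be told apart.

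Annotated transcripts that hold intron bases made up much of the TPM of 5 of the 10 genes. For each gene the longest annotated coding transcript served as reference, and a transcript was counted as holding intron bases if 100 or more of its bases lay inside introns of that reference. This measure was chosen after seeing the data. Of the 10 genes 6 had such a transcript, and in 5 of the 6 it held over 50% of the gene's TPM in all 3 libraries, beside 44.5% of the 8591 genes that have such a transcript and a mean TPM of at least 1. The shares were 79.2% ± 1.85 for Bcl2l11, 72.3% ± 4.05 for Cflar, 68.9% ± 3.53 for Bcl2, 67.4% ± 4.65 for Birc3 and 67.2% ± 4.42 for Bcl2l1 (SD, n = 3). Birc2 was lowest at 23.4% ± 2.00, and the median over those 8591 genes was 53.3% ± 1.94. The same 5 genes passed in the second transcript table, though Bcl2l1 only just, at 50.2% in replicate 1. The measure also counts spliced coding transcripts such as Birc3-202, with 5 exons, so it is no share of unspliced RNA. Transcripts that the annotation itself names retained introns exist for Birc2 and Cflar alone and held 21.2% ± 2.17 and 22.8% ± 1.39 of TPM, so that 0 of 2 passed 50%, beside 33.7% of 6755 genes.

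**Figure D3:**
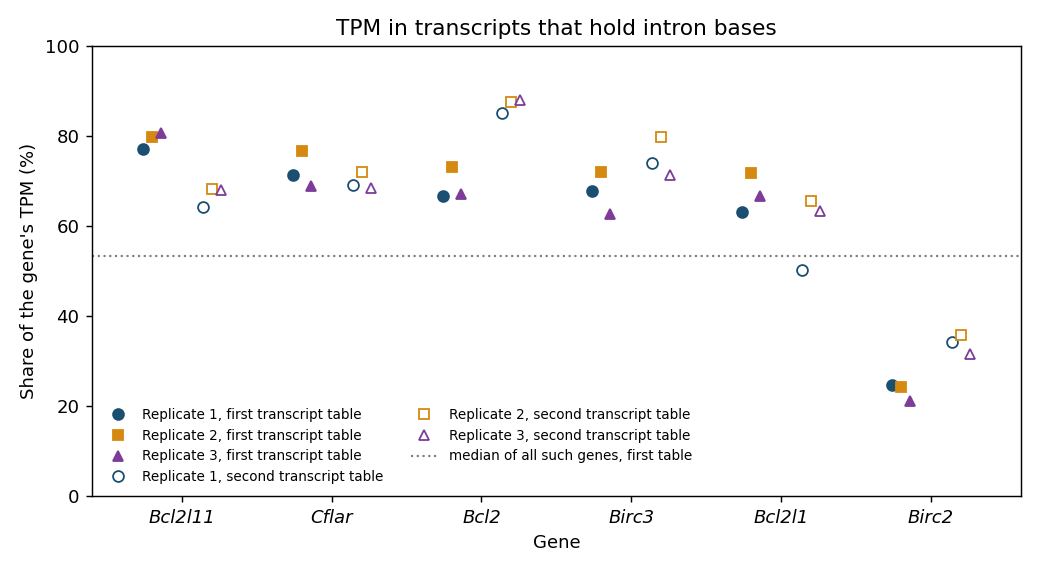
Share of each gene's TPM in transcripts holding 100 or more intron bases, per library, with filled points for the first transcript table and open points for the second. Bcl2l11, Cflar, Bcl2, Birc3 and Bcl2l1 lie above 50% in all 3 libraries of both tables, and Birc2 lies below 36%.

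In Bcl2l1 and Bcl2 the leading transcript ran past the splice site at the end of the main coding exon into the intron, so that its open reading frame ends there and lacks the last exon, which encodes the membrane anchor. Bcl2l1-205 has 209 codons, against 233 in Bcl2l1-201, and Bcl2-202 has 199, against 236 in Bcl2-201. The end of each reading frame is shown, with the bases of the intron in capitals up to the codon before the stop (chr2:152829364-152829446 and chr1:106712284-106712324 of mm10, minus strand):
Bcl2l1-205: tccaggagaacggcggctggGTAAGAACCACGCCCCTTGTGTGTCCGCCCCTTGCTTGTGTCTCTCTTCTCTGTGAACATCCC
Bcl2-202: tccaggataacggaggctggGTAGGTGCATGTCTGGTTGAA
Both paralogs continue into GT, the letters with which the spliced intron begins. Bcl2l1-205 stood at 25.5, 32.2 and 20.5 TPM and Bcl2l1-201 at 9.45, 10.1 and 8.38. Bcl2-202 stood at 1.99, 3.03 and 1.95 TPM and Bcl2-201 at 0.990, 1.12 and 0.960. The read-through form was the higher in each library for both genes, also in the second transcript table, where it held 56.3% ± 8.84 of Bcl2l1 and 86.8% ± 1.55 of Bcl2. These are levels in chromatin RNA, which also holds transcripts not yet spliced, and not levels of a finished mRNA.

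Cflar and Bcl2l11 were spread over several forms. In Cflar the retained intron transcript Cflar-213 held 22.8% ± 1.39 of TPM, the noncoding Cflar-207 20.5% ± 3.36 and Cflar-208 15.6% ± 3.78, which was 9.46% ± 2.61 in the second transcript table. Cflar-205, the form with 481 codons that has the length of the long form of c-FLIP, held 14.5% ± 3.10. In Bcl2l11 the intron-holding Bcl2l11-202 (91 codons) held 33.7% ± 2.13, the noncoding Bcl2l11-208 29.7% ± 5.04 and Bcl2l11-207 12.6% ± 5.0. Bcl2l11-205, with 196 codons the form known as BimEL, held 18.6% ± 0.706. In the second transcript table Bcl2l11-207 led at 24.8% ± 4.0, with 20.0% ± 4.0 for Bcl2l11-202, 18.4% ± 4.21 for Bcl2l11-208 and 10.8% ± 1.64 for Bcl2l11-205. Bcl2l11-204, with 110 codons the form known as BimS, held 0.673% ± 0.690 in the first transcript table but 17.7% ± 5.77 in the second. It has no base of its own outside the other transcripts of the gene.

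In Birc3 the noncoding Birc3-205 and Birc3-206, of 355 and 360 bases, have 280 and 325 bases in an intron of the reference Birc3-201. They stood at 15.1, 9.65 and 8.86 and at 16.5, 14.0 and 6.13 TPM, beside 19.8, 10.4 and 9.31 TPM of Birc3-201 (602 codons) and 13.0, 8.23 and 5.98 of the intron-holding Birc3-202 (376 codons). Short transcripts weigh heavily in TPM, which divides by length. In Birc2 the coding forms Birc2-202 and Birc2-204, both of 612 codons, ran in opposite directions over the libraries. Birc2-202 held 50.4%, 34.3% and 14.7% of TPM in replicates 1, 2 and 3 and Birc2-204 held 24.8%, 41.4% and 64.2%. The order of the libraries was the same in the second transcript table, at 36.5%, 21.9% and 6.91% against 29.2%, 42.1% and 61.4%. Birc2-202 has no base and Birc2-204 has 9 bases found in no other Birc2 transcript, so few reads separate them. The retained intron transcript Birc2-203 stood at 5.59, 3.32 and 3.31 TPM, and the noncoding Birc2-205 held 2.18% ± 2.68 of TPM in the first transcript table and 12.7% ± 1.44 in the second.

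**Figure D4:**
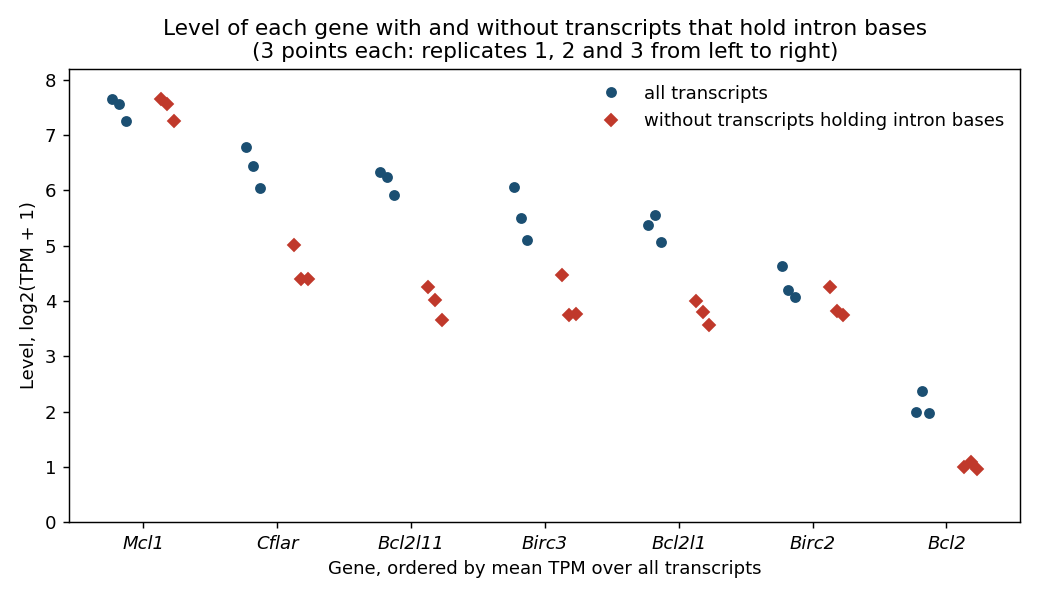
Level of Mcl1 and of the 6 genes with intron-holding transcripts as log2(TPM + 1), over all transcripts and without those transcripts, 1 point per library. Mcl1 is the same in both, and Birc3, Bcl2l1 and Birc2 stand at 47.9, 39.6 and 19.0 TPM on average over all transcripts and at 15.4, 12.9 and 14.5 without them.

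The authors' second transcript table, made directly from reads, gave other levels for some genes. A gene was compared if its mean TPM was 1 or more in the gene table or in the second transcript table. None of the 9 such genes, all but Bcl2a1a, was over 2-fold away from the gene table in all 3 libraries. Over all genes 37.0% of 22758 were, of which 8279 were higher and 152 lower in the second table. That share includes genes that reached a mean of 1 in the second table only, so it is no like background for the 9. At 1.5-fold 1 of the 9 was, Birc3, beside 46.2% of all genes, with the same limit. Birc3 stood at 108, 92.3 and 60.5 TPM there, 1.65, 2.08 and 1.81 times the gene table. Birc3-205 and Birc3-206 stood at 11.2 ± 3.41 and 12.2 ± 5.40 TPM in the first transcript table and at 28.7 ± 7.12 and 24.4 ± 10.5 in the second. Birc3-201 stood at 13.2 ± 5.75 and 10.3 ± 2.52. Bcl2 was 1.47, 1.87 and 2.42 times and Bcl2a1d 1.37, 2.04 and 1.57 times the gene table. Birc2, Cflar, Bcl2l1 and Bcl2a1b had mean ratios from 0.885 to 1.04.

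Mcl1 differed between the tables in its total and in how that total was divided. Its coding transcript Mcl1-202 (285 codons) lacks 138 bases, or 46 codons, from inside the first coding exon of Mcl1-201 (331 codons). The stretch is shown in capitals within Mcl1-201 (chr3:95658889-95659066 of mm10, plus strand), above the joined bases of Mcl1-202:
Mcl1-201: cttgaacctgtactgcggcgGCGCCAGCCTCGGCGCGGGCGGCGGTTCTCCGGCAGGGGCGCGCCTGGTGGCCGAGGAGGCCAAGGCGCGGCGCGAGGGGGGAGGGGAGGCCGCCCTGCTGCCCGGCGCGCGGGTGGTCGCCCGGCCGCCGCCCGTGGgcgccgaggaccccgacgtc
Mcl1-202: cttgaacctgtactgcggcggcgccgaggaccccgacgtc
Only 24 of the 828 windows of 31 bases in Mcl1-202 are absent from Mcl1-201. The first transcript table lists Mcl1-202 at 0 TPM in each library. The second gives it 116, 50.1 and 75.7 TPM, or 43.2%, 22.6% and 33.2% of the gene, and gives Mcl1-201 153, 171 and 152 TPM. The gene's total was 1.34, 1.18 and 1.5 times that of the gene table. The tables thus disagree on this form, and its level cannot be given from them.

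Differences between libraries were described on CPM scaled with edgeR's TMM factors, for the 9 genes with a mean count of 10 or more. Mcl1 was nearly level, at 587, 619 and 616 scaled CPM in replicates 1, 2 and 3, and Cflar at 199, 190 and 201. Bcl2l11 stood at 152, 169 and 155. Birc3 was higher in replicate 1, at 81.8 against 53.3 and 53.4 in replicates 2 and 3, or 1.53 times their mean. Bcl2a1d was 1.90 times as high there, at 2.64 against 0.93 and 1.85. Those were the 2 of 9 genes over 1.5-fold higher in replicate 1, beside 6.78% of 15877 genes, and 0 of 9 were lower there, beside 9.04%. Of the 8 macrophage markers 3 were also over 1.5-fold higher in replicate 1, Cd14, Csf1r and Lyz2, whose part in the result was not tested.

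In replicate 2 Bcl2a1d was 0.415 times the mean of the others, the 1 of 9 genes lower by over 1.5-fold, beside 5.24% of genes. None of 9 was higher there, beside 7.55%. In replicate 3 Bcl2a1b was 0.580 times the mean of the others, at 5.54 against 9.98 and 9.13 scaled CPM. It was the 1 of 9 genes lower there, beside 8.17%, and 0 of 9 were higher, beside 3.31%. Macrophage markers were over 1.5-fold lower in 2 of 8 cases in replicate 2 (Cd14 and Csf1r) and in 1 of 8 in replicate 3 (Lyz2), and their part in these results was not tested. Each comparison sets 1 library against the mean of the other 2 and has no replicate check. The median log2 ratio over the 9 genes was 0.03, 0.04 and 0.03 for replicates 1, 2 and 3, beside medians within 0.03 of 0 over all genes. Of the 35 genes in the 7 apoptosis lists with such counts, 3 were higher in replicate 1 (8.57%), beside 6.78% of all genes. In that replicate 1 was lower (2.86%), beside 9.04%. In replicate 2, 1 was higher (2.86%) and 1 lower (2.86%), and in replicate 3, 0 were higher and 2 lower (5.71%), beside the shares above.

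**Figure D5:**
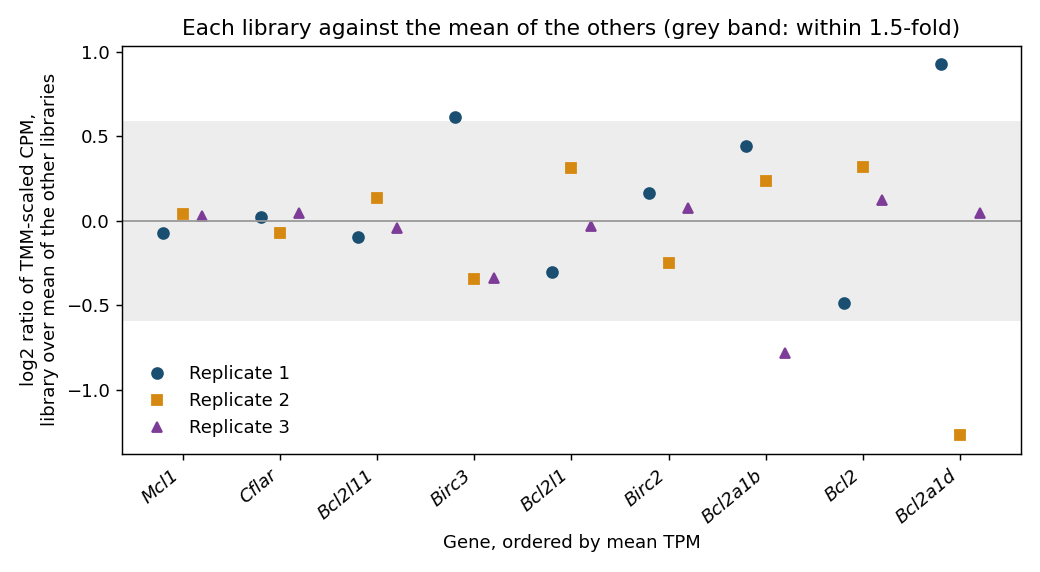
The log2 ratio of each library's TMM-scaled CPM to the mean of the other libraries for 9 genes, with a grey band within 1.5-fold. Outside the band are Birc3 and Bcl2a1d in replicate 1, Bcl2a1d in replicate 2 and Bcl2a1b in replicate 3.

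The spread between libraries was small for the abundant members. The tagwise biological coefficient of variation from edgeR estimates the relative spread between libraries beyond counting error. With few libraries it is drawn toward the trend over all genes, so it is not each gene's own spread alone. It was 0.134 for Mcl1, 0.135 for Cflar and 0.139 for Bcl2l11, beside trend values of 0.153, 0.154 and 0.155. The SD of their scaled CPM was 2.92%, 2.83% and 5.66% of the mean. Lower tagwise values were found for 0.176%, 0.290% and 3.34% of the 15877 genes. The tagwise value was 0.146 for Birc2, 0.155 for Bcl2l1, 0.179 for Bcl2 and 0.183 for Birc3. The low-count Bcl2a1b and Bcl2a1d had 0.221 and 0.322, the latter above 96.1% of genes. The median over the 9 genes was 0.155, beside 0.178 over all genes tested. It was 0.120 without replicate 1 and 0.176 without replicate 3.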

How the data were processed

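Per the file headers, the authors deposited for each library a gene table with an estimated count, a TPM and an SD of read assignment for each gene, and 2 transcript tables with estimated counts and TPM. Per the deposited readme files, the gene and the first transcript table came from transcriptome alignments to mm10 with GENCODE M21, and the second transcript table from the reads with an index built on that annotation. The sources used here name no program, version or strand setting. TPM divides by length and is relative to all listed RNAs, short ones included, so it moves with their share.

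Rows that named no annotated gene (26345 of 81881) were left out and held 0.351% to 1.16% of counts. Annotated genes held 15698066, 16005795 and 14386725 estimated counts in replicates 1, 2 and 3. A count of 0 allows 3 counts, or 0.191, 0.187 and 0.209 CPM, which covers counting error only. No library repeated another, since chi-square per degree of freedom was 14.3 to 33.9 between pairs.

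The 10 genes and the lists were chosen with earlier results of these data known. All 10 genes were named, with the highest and lowest gene of each apoptosis list, genes overlapping a member with a mean count of 10 or more, and transcripts with 10% or more of a member's TPM. Pairs were compared within libraries in log2(TPM + 1) by two-sided exact sign-flip permutation tests, with Benjamini-Hochberg adjustment over 5 pairs. Spread and TMM scaling used edgeR 4.0.16 in R 4.3.3 on estimated counts rounded to whole numbers, with DESeq2 1.42.0 as an alternative.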

Additional observations from a re-analysis of the deposited data

How the results depend on the processing

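Of 78 alternative values, 73 kept their direction, or stayed within 1.5 times for counts and within the spread of the leave-one-out values for the coefficient of variation. Setting aside transcripts holding intron bases could only enlarge the differences between Mcl1 and other genes within a table, so those alternatives are no check of direction. The difference between Cflar and Casp8 turned to -0.17 in the second transcript table without transcripts holding 100 or more intron bases, an alternative chosen after seeing the data. That between Birc3 and Birc2 ranged from 0.05 without such transcripts in the first table to 2.17 in the second transcript table over all transcripts. The number of genes over 1.5-fold higher in replicate 1 was 1 in the second transcript table, where Birc3 was not past the threshold, and 0 at 2-fold, against 2. The number differing between the quantifications was 1 at 1.5-fold, against 0. The median coefficient of variation ranged from 0.120 to 0.176 when single libraries were left out, against 0.155. Detection at a TPM of 10 left 6 genes of 9. No paired analysis was possible because there is 1 group. Counts of Bcl2a1a were below 3 in the gene table and up to 6.31 in the second transcript table, too few to place its level, and single libraries were compared with no replicate check.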
